A study of Mus musculus with 6 samples.

Results

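The genes described here encode 10 antiviral effectors that cells switch on in response to interferon. They are Ifit1, Ifit2, Ifit3 and Ifit3b, then Oas1a, Oas2, Oas3, Oasl1 and Oasl2, and Rsad2. They were chosen by name, with earlier results of these data known. Their transcripts were found by matching the mouse transcript IDs of the deposited table to GENCODE M21 symbols on GRCm38. All 10 were found among 11236 gene symbols, with 16 of 21558 matched transcripts, and all 10 were among the 10405 genes tested. The values come from RNA sequencing of BUMPT cells, a mouse line of kidney proximal tubule epithelium. In the first group, 3 libraries are labelled tRF-Val. The series text names tRF-Val-TAC-004, which is a piece cut from the transfer RNA for valine. The second group of 3 libraries is labelled NC, an abbreviation the labels do not spell out, and no dose, time or direction of the manipulation (fragment added or blocked) is given for either group. Both groups share the line and carry no other stated treatment. The stated aim was to look for a target of the fragment in apoptosis, so the antiviral genes were not the question the series posed.

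Interferons bind receptors at the cell surface and activate the kinases Jak1 and Tyk2, which phosphorylate transcription factors such as Stat2. With Irf9 these factors bind the interferon-stimulated response element in the promoters of antiviral genes. Some Ifit proteins, Ifit1 among them, bind viral RNA that lacks the cap modification of the cell's own messages and limit its translation. Oas enzymes make short chains of linked adenylates when they meet double-stranded RNA, and these chains set off the breakdown of RNA in the cell. Epithelial cells of the kidney tubule can mount this response themselves.

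Promoter stretches with the core letters that these factors recognise are shown first, as sequence that most of these genes share. RefSeq promoter windows on GRCm38.p6, from 250 bases before to 50 after a gene's start, were given for 9 of the 10 genes, in 10 windows. The core searched was GAAANNGAAA on both strands, which reads TTTCNNTTTC on the other strand. It was present for 6 of the 9 genes, and in 3.44% of the 32851 windows of all genes. The stretches below run 5′ to 3′ on the strand of the gene and end before its start, with each match in capitals.
Ifit1 (chr19:34640773-34640825, plus strand): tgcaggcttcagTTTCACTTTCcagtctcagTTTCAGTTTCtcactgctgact
Ifit3 (chr19:34583361-34583428, plus strand): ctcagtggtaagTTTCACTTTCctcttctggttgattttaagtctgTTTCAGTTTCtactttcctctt
Ifit3b (chr19:34607757-34607824, plus strand): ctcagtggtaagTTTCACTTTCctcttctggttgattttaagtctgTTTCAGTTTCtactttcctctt
Oas1a (chr5:120907526-120907557, minus strand): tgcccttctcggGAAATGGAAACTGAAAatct
Oas3 (chr5:120777713-120777746, minus strand): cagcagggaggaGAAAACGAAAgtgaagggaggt
Rsad2 (chr12:26456551-26456584, minus strand): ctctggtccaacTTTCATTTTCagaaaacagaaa

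Ifit1, Ifit3 and Ifit3b each hold the same pair of matches, TTTCACTTTC and then TTTCAGTTTC. They begin 104 and 85 bases upstream of the start in Ifit1, 156 and 122 in Ifit3, and 188 and 154 in Ifit3b. The stretches of Ifit3 and Ifit3b are identical at 68 of 68 bases. In Oas1a 2 overlapping matches begin 20 and 14 bases upstream, in Oas3 the match begins 75 bases upstream and in Rsad2 120. The windows of Ifit2, Oasl1 and Oasl2 do not hold these letters. The core of the gamma-activated site, TTCNNNGAA, which reads the same on both strands, was present for Oas1a and Ifit2, and in 8.30% of all windows. These matches are letters in a window and were not tested for binding.

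Of 16 tubule markers 9 were listed, with Krt8, a keratin, at 312 to 325 in tRF-Val and 171 to 265 in NC, and Pax8, a kidney transcription factor, at 48.5 to 76.1 in tRF-Val and 54.0 to 75.4 in NC. The defining markers of the proximal tubule Lrp2, Cubn, Slc34a1, Slc5a2, Slc22a6, Ggt1 and Hnf4a were not listed. Summed, the tubule list was at 839.9 to 876 in tRF-Val and 498 to 735 in NC. Of 12 leukocyte markers 5 were listed, Ptprc not among them, and their summed values were 35.6 to 42.4 in tRF-Val and 9.87 to 25.6 in NC, most of it from Cd14. Fibroblast markers summed to 1.01 to 1.76 in tRF-Val and 0.850 to 1.26 in NC (2 of 7 listed), and endothelial markers to 2.72 to 5.02 in tRF-Val and 6.25 to 8.03 in NC (1 of 5 listed). The part of these marker differences in the results was not tested. NC 3 stood apart from the other libraries. Its correlation with NC 1 and NC 2 across genes was 0.903 and 0.915, against 0.974 between those 2, and mitochondrially encoded transcripts took 17.5% of its values, against 3.16% to 6.58% in the other 5 libraries. Fold changes of the 10 genes are therefore given with and without NC 3. In bulk RNA, fewer cells that express a gene and less RNA per cell cannot be told apart. The labels do not tie the libraries to separate cultures, and the p-values therefore rest on a spread between libraries that may be technical.

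The values are abundances per transcript, scaled by the authors to each library and added here over the transcripts of a gene. Each fold change is the tRF-Val mean less the NC mean of log2(value + 1), which understates changes of low genes. As a set the 10 genes were lower in tRF-Val in value, but 1 alone passed the test over all genes. Fold changes were negative for 9 of 10, beside 48.9% of all genes tested, and the median was -0.84, beside 0.01 over all genes. Every tRF-Val library lay below every NC library in 6 genes, Ifit1, Ifit2, Ifit3, Ifit3b, Oas3 and Oasl2, where 22.1% of all genes had this pattern, and in 0 did every tRF-Val library lie above, where 20.3% of all genes did. Ifit2 was the 1 gene with an adjusted p under 0.05 (limma, Benjamini-Hochberg), which 0.202% of genes reached as lower in tRF-Val. At an unadjusted p under 0.05, 5 of the 10 were lower, beside 15.6% of all genes. Because the 10 were chosen with earlier results known, these shares describe the set and do not test it.

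**Figure D1:**
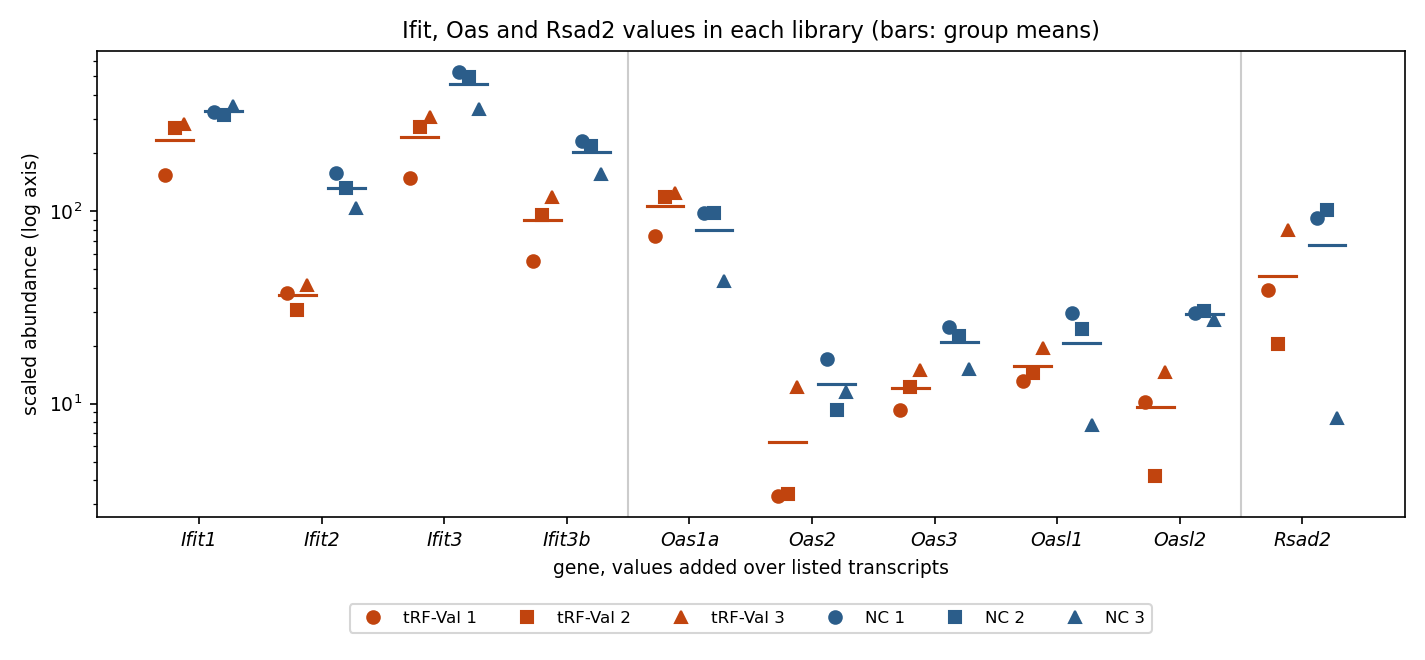
Scaled abundance (log axis) of the 10 genes in each of the 3 tRF-Val libraries (orange, left) and 3 NC libraries (blue, right), with bars at the group means. The groups do not overlap for the 4 Ifit genes, Oas3 and Oasl2, and NC 3 (blue triangle) is the lowest library for Oas1a, Oasl1 and Rsad2.

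Ifit2 showed the clearest difference. It encodes an RNA-binding protein of tetratricopeptide repeats that has been linked to inhibition of translation and to cell death. Its value was 37.4, 30.7 and 41.4 in tRF-Val 1, 2 and 3, and 158, 132 and 103 in NC 1, 2 and 3. The groups were far apart: the highest tRF-Val library lay well under the lowest NC library. Ifit2 fell to 36.5 ± 5.41 (SD, n = 3) in tRF-Val, against 131 ± 27.5 (SD, n = 3) in NC, a log2 fold change of -1.80 (SE 0.21) with an adjusted p of 0.0469 by limma. Without NC 3 the fold change was -1.96 (SE 0.16) with an adjusted p of 0.0221. Its listed transcript has 3818 bases and 42.0% GC. After removing, library by library, the trend with length and GC content, the fold change was -1.37 with an adjusted p of 0.126, and with both that removal and NC 3 left out it was -1.72 with 0.0225. The call thus sat at the threshold, and it was lost under 11 of 19 alternatives while the fold change kept its sign in each. Ifit2 lies on chromosome 19 at 34550694 to 34576419 on the plus strand, and 1 of its 2 annotated transcripts was listed, with 3 exons.

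Ifit3 and Ifit3b, neighbouring genes in the same cluster, were also lower in value. Ifit3 encodes a partner that stabilises Ifit1 on RNA in human cells. Its value was 148, 273 and 306 in tRF-Val 1, 2 and 3, and 527, 494 and 339 in NC 1, 2 and 3. The groups did not overlap, but tRF-Val 3 came close to NC 3. By limma the log2 fold change of -0.94 (SE 0.32) had an adjusted p of 0.137, and leaving out NC 3 gave -1.13 with 0.0894. Without tRF-Val 1, its lowest library, the fold change was -0.62. Ifit3b, a close copy of Ifit3, was at 55.3, 95.5 and 119 in tRF-Val 1, 2 and 3, and at 230, 218 and 156 in NC 1, 2 and 3. Its log2 fold change was -1.21 (SE 0.32), with a limma adjusted p of 0.099, and without NC 3 it was -1.38 with 0.0668, so neither gene passed.

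These copies share much of their sequence, so how reads were divided between them is uncertain. Of the 50-base words in the listed Ifit3 transcript 51.2% also occur in transcripts of Ifit3b, and for Ifit3b 45.0% occur in another gene. Both added into 1 feature had a log2 fold change of -1.02 (limma adjusted p of 0.122). The ratio of Ifit3b to Ifit3 was 0.373, 0.349 and 0.387 in tRF-Val 1, 2 and 3, and 0.438, 0.442 and 0.460 in NC 1, 2 and 3. The groups did not overlap in this ratio. Across libraries both genes varied together, with a Pearson r of 0.99 over 6 libraries.

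Ifit1, the member of the cluster that binds capped RNA without the ribose methyl mark, differed less than its neighbours in value. It was at 153, 268 and 281 in tRF-Val 1, 2 and 3, and at 326, 315 and 350 in NC 1, 2 and 3. All tRF-Val libraries lay below, with tRF-Val 1 the lowest by a wide margin. By limma the log2 fold change of -0.54 (SE 0.25) had an adjusted p of 0.219, and without NC 3 it was -0.50 with 0.276. It was -0.26 without tRF-Val 1, -0.31 with the length and GC trend removed and -0.89 with quantile normalization. The ratio of Ifit2 to Ifit1 was 0.244, 0.115 and 0.148 in tRF-Val 1, 2 and 3, and 0.486, 0.419 and 0.294 in NC 1, 2 and 3. The groups did not overlap in this ratio either. With 3 libraries a group, exact permutation gives no p under 0.1, so these ratios are a description, and no share over other gene pairs was computed. This holds for all 6 ratios compared, of which not all are given, and the groups overlapped in none of them. The pairs were not part of the plan. The 4 Ifit genes lie on the plus strand of chromosome 19 within 34550694 to 34650009. By mean, Ifit2 ranked 6 of the 10 genes in tRF-Val and 4 in NC, while Ifit3 ranked 1 and Ifit1 ranked 2 in both groups.

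The fold changes of the Oas enzymes were not all of one sign. Oas3, the enzyme with 3 repeats of the synthetase unit, was at 9.28, 12.1 and 14.9 in tRF-Val 1, 2 and 3, and at 25.1, 22.5 and 15.1 in NC 1, 2 and 3. The groups nearly touched, at tRF-Val 3 and NC 3. By limma the log2 fold change of -0.73 (SE 0.26) had an adjusted p of 0.140, and without NC 3 it was -0.94 with 0.0578. With the length trend removed it was -0.43.

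Oas2, whose protein carries a pair of synthetase units, was at 3.33, 3.38 and 12.2 in tRF-Val 1, 2 and 3, and at 17.1, 9.22 and 11.5 in NC 1, 2 and 3. Here tRF-Val 3 lay among the NC libraries. By limma the log2 fold change of -1.07 (SE 0.49) had an adjusted p of 0.208, and without NC 3 it was -1.11 with 0.242. Its main listed transcript was the same in the 3 tRF-Val libraries but differed among the NC libraries. The transcript of 3869 bases and 11 exons held 91.2%, 91.3% and 74.3% of the value in tRF-Val 1, 2 and 3, and 84.8%, 3.44% and 2.65% in NC 1, 2 and 3. The transcript of 3961 bases and 12 exons held 1.68%, 1.51% and 23.3% in tRF-Val 1, 2 and 3, and 12.2%, 87.7% and 77.7% in NC 1, 2 and 3. In these shares NC 1 was like the tRF-Val libraries, and the fold changes of the 2 forms, 0.88 and -2.01, did not pass (limma adjusted p of 0.664 and 0.223).

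Oas1a went the other way in value. It encodes an active enzyme with a single synthetase unit and was the highest of the Oas genes in both groups. It was at 74.6, 118 and 124 in tRF-Val 1, 2 and 3, and at 98.1, 97.9 and 43.5 in NC 1, 2 and 3. The groups overlapped and NC 3 was far below the other NC libraries. The log2 fold change was 0.46 (SE 0.38), with a limma adjusted p of 0.445, but 0.07 (SE 0.24) without NC 3. Leaving out that library, the means were 106 in tRF-Val and 98.0 in NC, so little of the difference remained. Without tRF-Val 1 the fold change was 0.69. Of its 50-base words 57.6% also occur in Oas1g, a neighbouring copy, and with Oas1g added the fold change was 0.50 with an adjusted p of 0.416. The ratio of Oas3 to Oas1a was 0.124, 0.103 and 0.120 in tRF-Val 1, 2 and 3, and 0.256, 0.230 and 0.347 in NC 1, 2 and 3. The groups did not overlap in this ratio. The main listed transcript of Oas3 has 4720 bases and that of Oas1a 1885. With the length trend removed the fold changes were -0.43 for Oas3 and 0.25 for Oas1a, and the part of length in the ratio was not tested. Oas2, Oas3 and Oas1a lie on the minus strand of chromosome 5, within 120730333 to 120907521.

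**Figure D2:**
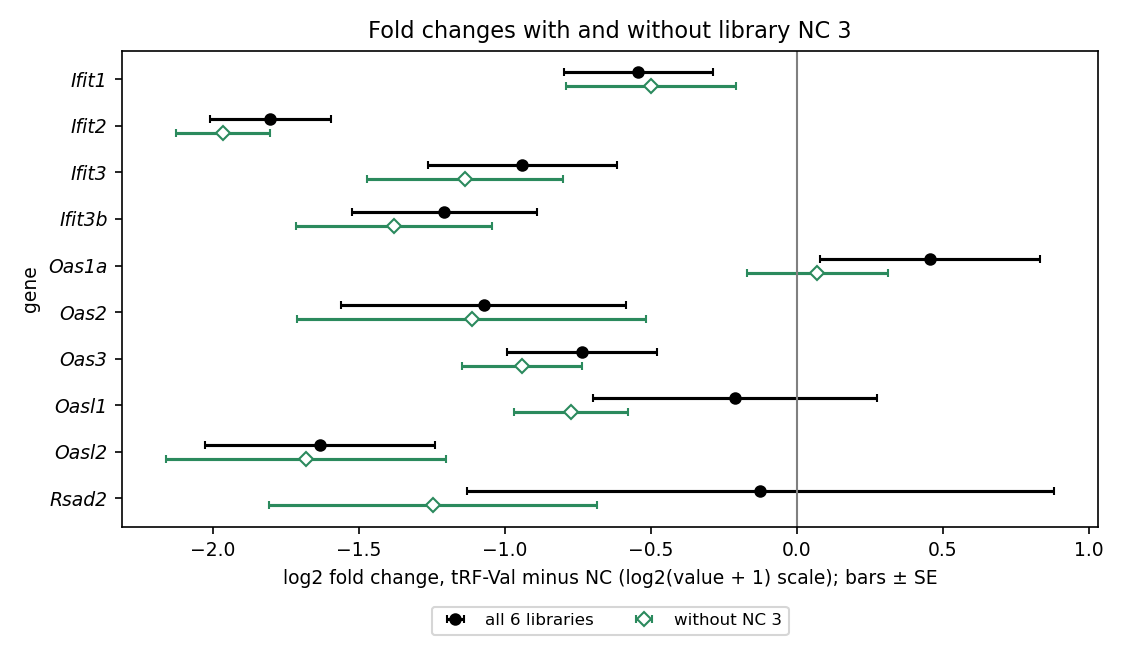
Log2 fold change of each gene (horizontal axis, tRF-Val minus NC, bars ± SE) with all 6 libraries (black circles) and without NC 3 (green diamonds). Ifit2 and Oasl2 are near -1.80 and -1.63 and barely move, while Rsad2 is at -0.12 with all libraries and -1.24 without NC 3.

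The Oas-like genes encode relatives whose carboxyl end resembles ubiquitin. Oasl2 was at 10.2, 4.23 and 14.5 in tRF-Val 1, 2 and 3, and at 29.7, 30.4 and 27.1 in NC 1, 2 and 3. The NC libraries were close together, NC 3 included, and each lay above every tRF-Val library. The mean was 9.64 ± 5.17 (SD, n = 3) in tRF-Val and 29.1 ± 1.72 (SD, n = 3) in NC, with a log2 fold change of -1.63 (SE 0.39) and an adjusted p of 0.0915 by limma. Without NC 3 it was -1.68 with 0.0838. This was the largest difference after Ifit2 among the 10 genes, and it did not pass. After removal of the trend with length and GC content it was -1.55, with an adjusted p of 0.145. The table listed 3 of its 9 annotated transcripts. The longest, of 3123 bases, held 90.2%, 68.8% and 88.6% of the value in tRF-Val 1, 2 and 3, and 92.5%, 86.7% and 90.6% in NC 1, 2 and 3.

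Oasl1, which in mice represses translation of the Irf7 message, was at 13.1, 14.3 and 19.4 in tRF-Val 1, 2 and 3, and at 29.7, 24.5 and 7.72 in NC 1, 2 and 3. NC 3 was the lowest of the 6, and the other NC libraries were the highest. The log2 fold change was -0.21 (SE 0.49), with a limma adjusted p of 0.792, and -0.77 (SE 0.20) with 0.0685 without NC 3. Without NC 1 the fold change was 0.14. Oasl1 and Oasl2 lie side by side on the plus strand of chromosome 5, within 114896936 to 114937915. The share of the 6-exon Oasl1 transcript was 67.1%, 56.9% and 90.6% in tRF-Val 1, 2 and 3, and 85.6%, 62.9% and 77.7% in NC 1, 2 and 3, so the groups overlapped.

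**Figure D3:**
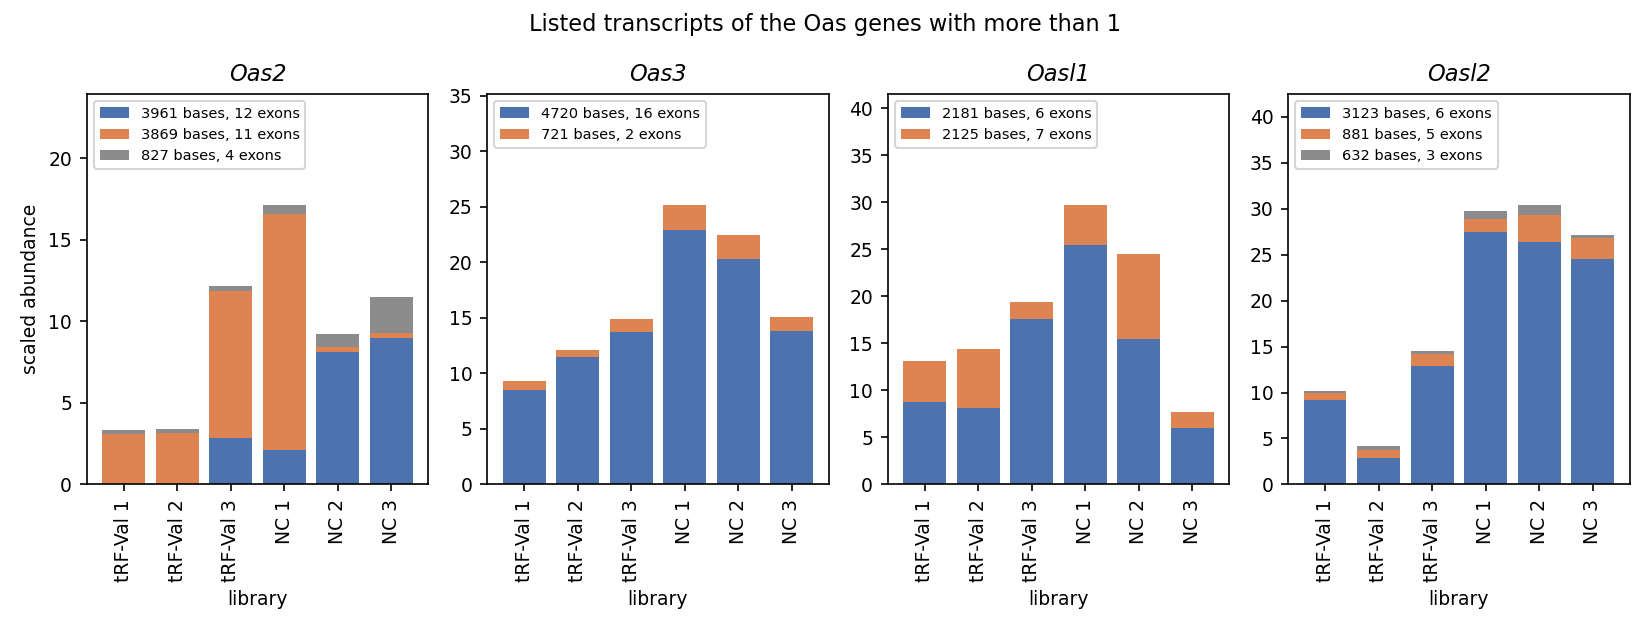
Scaled abundance of each listed transcript, stacked, in the 3 tRF-Val libraries (left) and the 3 NC libraries (right) for Oas2, Oas3, Oasl1 and Oasl2. The long transcript of Oas3 and of Oasl2 held most of the value in every library, whereas in Oas2 the main transcript differed between NC 1 and the other NC libraries.

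Rsad2 encodes viperin, a radical SAM enzyme that makes a chain-terminating nucleotide against viral polymerases. It was at 38.7, 20.5 and 79.4 in tRF-Val 1, 2 and 3, and at 91.6, 101 and 8.43 in NC 1, 2 and 3. NC 3 was the lowest of all libraries and the other NC libraries were the highest, so the groups overlapped. The log2 fold change was -0.12 (SE 1.01), with a limma adjusted p of 0.944, and -1.24 (SE 0.56) with 0.183 without NC 3. No direction can be given for Rsad2 with all libraries. It lies on chromosome 12 at 26442746 to 26456452 on the minus strand, and 1 of its 3 annotated transcripts was listed.

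Without NC 3 every tRF-Val library lay below both NC libraries in 8 of the 10 genes, beside 33.5% of all genes, and the median fold change was -1.12, beside -0.08 over all genes. Still 1 gene, Ifit2, passed, beside 2.97% of genes called lower. Over single transcripts 14 of the 16 could be tested and 1, that of Ifit2, passed with an adjusted p of 0.0248 by limma, beside 0.839% of transcripts called lower. NC 3 was the lowest library for 3 of the 10 genes, tRF-Val 1 for 5 and tRF-Val 2 for 2. NC 1 was the highest for 6. Summed over the 4 Ifit genes the value was 394, 668 and 748 in tRF-Val 1, 2 and 3, and 1241, 1159 and 949 in NC 1, 2 and 3. The groups could not overlap in this sum, because they overlapped in none of the 4 genes. Summed over the 5 Oas genes it was 110, 152 and 185 in tRF-Val 1, 2 and 3, and 199.8, 185 and 105 in NC 1, 2 and 3. Those groups overlapped, with NC 3 the lowest of the 6, and Oas1a was the largest part of the sum in every library.

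Among genes outside the 10, the profile most like their mean over the 6 libraries (Pearson r of log2 values, genes with a mean of at least 10) was that of Irgm1, an interferon-induced GTPase, at r = 0.975. It was at 157, 202 and 223 in tRF-Val 1, 2 and 3, and at 295, 299 and 205 in NC 1, 2 and 3. Next came Nsd2 (r = 0.965), a histone methyltransferase, Tinagl1 (0.964), Samhd1 (0.963), a nucleotide hydrolase that restricts viruses, and Cdc25a (0.962), a cell cycle phosphatase. Of 5399 genes compared, 31 had an r over 0.9. The 6 points share the libraries and their scaling, and none of the 5 genes passed the test.

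The rest of the pathway was described with lists of its other genes, also chosen with earlier results of these data known. Of 77 genes 66 were tested, 42 with negative and 24 with positive fold changes, with a median of -0.30. Over all genes 48.9% were negative and the median was 0.01. Groups that did not overlap were seen in 26 lower and 9 higher genes, beside the 22.1% and 20.3% of all genes given above. Dtx3l, a ubiquitin ligase that works with Parp9, was the 1 gene of these that passed, at 14.8 ± 0.979 (SD, n = 3) in tRF-Val and 33.4 ± 1.75 (SD, n = 3) in NC (limma adjusted p of 0.049). After removal of the length and GC trend its log2 fold change was -0.67, against -1.12 before, and it missed the threshold (limma adjusted p of 0.143). Without NC 3, 14 of the list genes passed as lower, beside 2.97% of all genes, and 1 as higher, beside 2.73% of all genes. With the length and GC trend also removed, only Cmpk2, Cxcl10 and Mx2 of the 14 still passed (limma adjusted p of 0.0198, 0.0202 and 0.0222). In that setting 63 of 10393 genes were called lower and 44 higher. Mx2 was at 0.0223 in NC 3, so its groups overlapped with all libraries.

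The ligands Ifnb1, Ifna4, Ifnl2 and Ifnl3 were not listed, and 7 genes of receptors and kinases were tested with a median of 0.02. Jak1, the kinase, was at 22.8 ± 2.85 in tRF-Val and 39.2 ± 4.59 in NC (SD, n = 3 each), while Ifnar2, a subunit of the type I receptor, was at 61.6 ± 3.43 in tRF-Val and 40.3 ± 9.89 in NC (SD, n = 3 each). Without NC 3 Ifnar2 was the gene that passed as higher (limma adjusted p of 0.0328). It also passed with NC 3 left out and the length and GC trend removed (limma adjusted p of 0.0468). With the length and GC trend removed the log2 fold change was -0.36 for Jak1, against -0.76 before, and 0.37 for Ifnar2, against 0.62 before. Ifngr2, of the interferon gamma receptor, had a log2 fold change of 0.36, or 0.17 without NC 3 and 0.58 with that trend removed, and did not pass.

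Of 9 sensors and adaptors 4 lay lower in every tRF-Val library, beside 22.1% of all genes, and 0 lay higher, beside 20.3%. Ddx58, the sensor RIG-I, had a log2 fold change of -2.67 (SE 0.42) and Ifih1, the sensor MDA5, -1.24 (SE 0.20). Tlr3 was at -1.28 and Eif2ak2, the kinase PKR, at -0.67, and none of the 4 passed with all libraries (limma adjusted p of 0.0582 to 0.0897). Without NC 3 Ifih1 passed (limma adjusted p of 0.0420). With the length and GC trend removed the fold changes were -2.34 for Ddx58, -0.75 for Ifih1, -0.85 for Tlr3 and -0.22 for Eif2ak2. Of 6 transcription factors Stat2 was at -1.95 (SE 0.42), while Irf3, which acts before interferon is made, was at 0.99 (SE 0.32). Their limma adjusted p values were 0.0871 and 0.127. Without NC 3 they were at -2.16 and 0.63, and with the length and GC trend removed at -1.74 and 0.46, for Stat2 and Irf3 in that order.

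Among 34 other interferon-induced effectors 24 were negative, beside 48.9% of all genes, and the median was -0.50, beside 0.01. Besides Dtx3l, those with the smallest p were Samd9l (-1.26), Parp14 (-1.10), a mono-ADP-ribosyltransferase, and Ddx60 (-0.94), a helicase. These passed without NC 3 (limma adjusted p of 0.0405, 0.0394 and 0.0422), but with the length and GC trend removed their fold changes were -0.69, -0.60 and -0.37. In 16 of the effectors every tRF-Val library was lower, beside 22.1% of all genes, and in 5 every one was higher, beside 20.3%. The 5 were Ifi27 (1.12), Bst2 (1.03), Ccl5 (0.99), Ifitm3 (0.57) and Isg20 (0.38), and none passed. With the trend removed their fold changes were 0.56, 0.30, 0.24, -0.06 and -0.24. Nearest to the 10 genes, Ifit1bl1, a further gene of the Ifit cluster, was at 5.76 to 6.34 in tRF-Val and 9.05 to 11.9 in NC, with no overlap (limma adjusted p of 0.0899). Abce1, which recycles ribosomes, was at 43.2 ± 7.63 in tRF-Val and 81.7 ± 19.4 in NC (SD, n = 3 each), and its log2 fold change of -0.89 was -0.44 with that trend removed. Ifit1bl1 passed without NC 3 (limma adjusted p of 0.0420). With the trend removed its log2 fold change was -0.54, against -0.69 before, and it did not pass (limma adjusted p of 0.29). With that removal and NC 3 left out it also missed the threshold (limma adjusted p of 0.0669). Of 5 negative regulators Socs3 had a log2 fold change of 0.72 and Samhd1 of -0.28, and neither passed. With the trend removed they were at 0.42 and -0.03, and without NC 3 Socs3 was at 0.32.

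**Figure D4:**
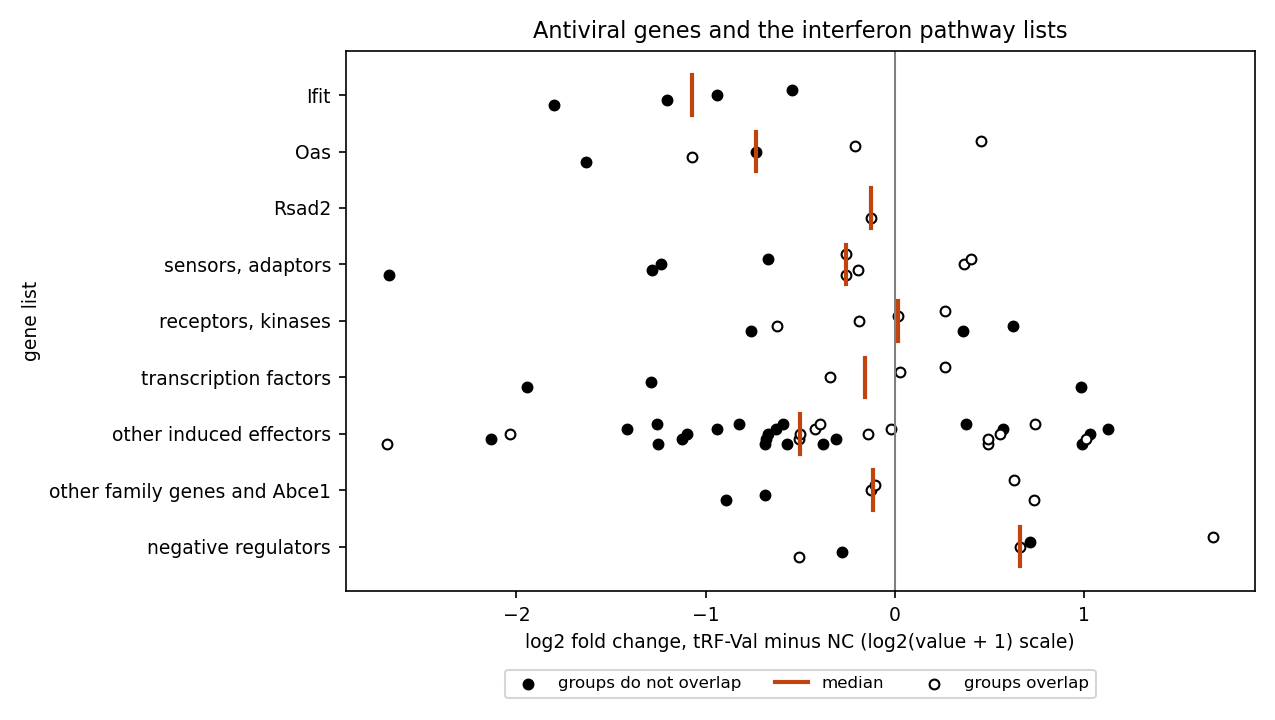
Log2 fold change of each tested gene (points; filled where the groups do not overlap) in the 3 groups of antiviral genes and 6 lists of the interferon pathway, with the list median in orange. The Ifit genes have a median of -1.07 and all lie left of 0, whereas receptors and kinases lie on both sides with a median of 0.02.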

How the data were processed

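RNA from 6 libraries, 3 labelled tRF-Val and 3 labelled NC in the sample titles, was sequenced after stranded library preparation, per the labels' protocols, which also mention joint tissue. The submitters' processing notes list HISAT2 2.1.0, StringTie and cutadapt, and name GRCh38, a human build, although most rows carry mouse IDs. Their settings are not stated. The table the authors deposited holds 1 signal value per transcript and library, scaled to the library. Whether it is coverage, FPKM or TPM is not stated, so read depth is unknown and no interval from counts is given. Of 30813 rows 21603 carry mouse IDs, and 21558 of these matched GENCODE M21 without version. The 9210 other rows carry IDs that are not of mouse and were not used. Whether reads of the mouse genes were assigned to those rows was not tested. The larger group mean of a mouse transcript was never under 0.5, so gene sums lack lower transcripts. Summed mouse values were 421201 to 444539 in tRF-Val and 387611 to 389669 in NC. Over all rows the sums were 462681 to 491278 in tRF-Val and 436688 to 440902 in NC.

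Genes with a mean of at least 1 were fitted as log2(value + 1) with limma 3.58.1 in R 4.3.3 (trend, robust, no covariate), with two-sided p-values adjusted over all 10405 genes by Benjamini-Hochberg and a threshold of 0.05. The same fit was run over 16320 transcripts. The fit was tested on simulated data. Alternatives were other pseudocounts, filters, scalings, removal of loess trends (span 0.3) with length and GC content, the replicate number as a block, and each library left out. Chosen after seeing the data were the adding of near-identical pairs, and NC 3 left out together with the trend removal. The 10 genes and the pathway lists were chosen with earlier results of these data known. Named genes were the 10, list genes that passed, and up to 4 per list with the smallest p and groups apart. The 5 genes most like the mean profile were also named. Outside that rule, after their values were seen, came the cell type markers and the 5 effectors higher in every tRF-Val library. Cmpk2, Cxcl10 and Mx2 were named outside it as well. Some genes that the rule names are not reported here. Sequences are from RefSeq (GRCm38.p6), which is also GENCODE M21's assembly.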

Additional observations from a re-analysis of the deposited data

How the results depend on the processing

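Over all genes 27 were called, 6 higher and 21 lower in tRF-Val. The number was 5 with a pseudocount of 0.1, 0 with 0.01 (limma; 2798 at an unadjusted p under 0.05), 2 with a mean of at least 5, 71 with quantile normalization, 209 with mitochondrial transcripts left out, 15 with the length trend removed, 47 without trend and robust moderation, and 107 with NC 3 left out and the length and GC trend removed. Leaving out 1 library in turn gave 4 to 593 calls, the highest without NC 3. With libraries set to the same median 15 were higher and 23 lower, and leaving out mitochondrial transcripts 23 higher and 186 lower, with the median of all genes at -0.20. The members called by limma were 1, Ifit2, in the main setting. They were 0 with either other pseudocount, a mean of at least 5, the length trend removed, or the length and GC trend removed. At an unadjusted limma p under 0.05, 4 or 5 members were seen there. Beside them were 2221 of 7408 genes with a mean of at least 5, and 1874 to 2815 of 10405 genes otherwise. Leaving out 1 library gave 0 to 1 members called, with 3 to 6 at an unadjusted p under 0.05. Beside them were from 1615 of 10428 genes without tRF-Val 2 to 3709 of 10393 without NC 3. The cause of these changes in calls was not tested. The median of the members was between -1.12 and -0.59 in all alternatives. With the replicate block 0 genes and 0 members were called by limma (2455 of 10405 genes and 3 members at an unadjusted p under 0.05, Ifit2 adjusted p 0.176). Deviations of same-numbered libraries correlated at -0.03, 0.02 and -0.01. No pairing by number was seen, but so few libraries cannot exclude it. Ifit1, Ifit3, Ifit3b, Oas3 and Oasl2 kept a negative fold change and missed the threshold in every alternative. Signs turned for Oas1a (-0.11 with NC 3 left out and the trend removed), Oas2 (0.88 over its single most abundant transcript), Oasl1 (-0.77 to 0.14 with 1 library left out, positive without NC 1 and, at 0.0032, without NC 2) and Rsad2 (0.11 and 0.27 with the length or the length and GC trend removed, -1.24 to 0.47 with 1 library left out, positive without NC 1, NC 2 or tRF-Val 2). Read depth is unknown, so the precision of low values such as Oas2 is too.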
